A study of Homo sapiens with 7 samples.

Results

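Heat shock proteins and chaperonins are proteins that bind other proteins while these fold, assemble, cross membranes or are broken down. Their transcripts were measured in HCT116 cells, a human colorectal carcinoma line, with a DROSHA knockout. The genes were chosen by symbol, from a list of 40 that holds 21 chaperones of the cytosol, 15 of the endoplasmic reticulum (ER) and 4 of the mitochondria, among 15659 gene symbols counted in the series. Of the 40 symbols, 39 had a read in at least 1 library and 38 passed the filter on low counts and were tested. The cells had been transfected with miR-148a-3p (3 libraries) or with a control miRNA (3 libraries), and RNA was taken 48 h later. The knockout is shared by both groups, and DROSHA is the nuclear enzyme that releases microRNA precursors from primary transcripts; the microRNA content of these cells was not analysed here. The labels do not say whether the knockout line is 1 clone, and they do not give the sequence or dose of either transfected RNA.

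Chaperones of the HSP70 family bind exposed hydrophobic stretches and release them in a cycle driven by ATP, which J proteins start and exchange factors of the HSP110 family end. HSP90 acts later, on kinases, receptors and other clients that are nearly folded, and the chaperonins enclose a chain in a ring. In the cytosol these genes are induced by the heat shock factor HSF1, and in the ER by the unfolded protein response, through ATF6, XBP1 and ATF4. Tumour cell lines are known for high constitutive levels of many of them.

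The transfected microRNA and its relatives share a seed, the stretch that pairs with target transcripts. RefSeq mature sequences of the build GRCh38.p14 are shown with the seed, bases 2 to 8, in capitals, to show the annotated miR-148a-3p and what its family shares.
miR-148a-3p: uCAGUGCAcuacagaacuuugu
miR-148b-3p: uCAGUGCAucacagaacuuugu
miR-152-3p: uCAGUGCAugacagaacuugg
Transcript sequences were not used here, so chaperone transcripts were not searched for matches to the seed.

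The compartments differed in the letters of their promoters. The members include known targets of the heat shock and unfolded protein responses, so the shares below describe the list and test nothing. RefSeq promoter windows of 250 bases before to 50 after a start were found for 37 of the 40 genes, not for HSPA14, CCT6A and PDIA3, and both strands were searched. The ER stress element, CCAAT and CCACG with 9 bases between them, was present in 6 of 14 ER genes, HSPA5, HSP90B1, CALR, CANX, PDIA6 and CRELD2, against 0.0916% of all 27305 genes with a window. The second ER stress element, ATTGG and CCACG with 1 base between them, was present in HYOU1, SDF2L1 and HERPUD1, 3 of 14 ER genes, against 0.0696% of all genes. Neither was found in the windows of the 19 cytosolic or 4 mitochondrial genes. Both elements hold the shorter CCAAT box, which was present in 14 of 14 ER genes, 9 of 19 cytosolic and 0 of 4 mitochondrial genes, against 39.7% of all genes. The heat shock element of 3 units, GAA, TTC and GAA with 2 bases between each, was present in 5 of 19 cytosolic genes (HSP90AA1, HSP90AB1, HSPA8, DNAJA1 and DNAJB6), in 0 of 14 ER genes and in HSPD1, against 0.608% of all genes. Its shorter part GAANNTTC was present in 11 cytosolic genes, in CANX and in HSPD1, against 8.21% of all genes. Where RefSeq lists several starts a match in any window counts, and a start need not be the gene's outer end. For HSP90AA1, HSP90AB1, HSPA8, HSPD1, PDIA6 and CANX the start beside the longer element lies inside the annotated gene. These are matches of letters, not binding sites shown in these cells.

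The 200 bases before the start are given below for ER and cytosolic genes on which the results turn, as RefSeq lists them in GRCh38.p14, with the fixed letters of the longest element found in capitals. HSPA5 and HSP90B1 are the most abundant ER members, and SDF2L1 is the ER member with the largest positive fitted change.
HSPA5 (chr9:125241344-125241543, minus strand): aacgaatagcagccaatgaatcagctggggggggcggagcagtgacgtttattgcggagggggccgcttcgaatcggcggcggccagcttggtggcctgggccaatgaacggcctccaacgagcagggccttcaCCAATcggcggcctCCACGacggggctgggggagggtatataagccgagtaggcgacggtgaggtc
HSP90B1 (chr12:103930210-103930409, plus strand): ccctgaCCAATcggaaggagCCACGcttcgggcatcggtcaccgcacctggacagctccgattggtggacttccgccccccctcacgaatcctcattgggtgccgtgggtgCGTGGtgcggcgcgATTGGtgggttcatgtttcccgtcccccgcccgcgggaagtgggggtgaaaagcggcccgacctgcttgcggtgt
SDF2L1 (chr22:21642102-21642301, plus strand): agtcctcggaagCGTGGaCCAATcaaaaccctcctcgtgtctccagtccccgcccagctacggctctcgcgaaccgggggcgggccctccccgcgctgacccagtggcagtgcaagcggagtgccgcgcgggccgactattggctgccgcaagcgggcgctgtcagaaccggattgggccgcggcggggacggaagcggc
For HSPA8 the capitals mark a heat shock element with 3 units, and for HSPA1A and HSPA1B the shorter part. The HSPA1A and HSPA1B windows were 92.6% identical without gaps (277 of 299 bases, shifted by 1 base).
HSPA8 (chr11:123062137-123062336, minus strand): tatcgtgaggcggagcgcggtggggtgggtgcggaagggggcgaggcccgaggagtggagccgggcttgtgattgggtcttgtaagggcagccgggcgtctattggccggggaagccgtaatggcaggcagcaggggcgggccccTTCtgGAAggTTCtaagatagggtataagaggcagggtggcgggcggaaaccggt
HSPA1A (chr6:31815343-31815542, plus strand): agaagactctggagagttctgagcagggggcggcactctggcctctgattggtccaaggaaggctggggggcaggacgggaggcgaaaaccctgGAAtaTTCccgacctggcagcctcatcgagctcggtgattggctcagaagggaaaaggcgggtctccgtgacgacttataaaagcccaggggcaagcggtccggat
HSPA1B (chr6:31827538-31827737, plus strand): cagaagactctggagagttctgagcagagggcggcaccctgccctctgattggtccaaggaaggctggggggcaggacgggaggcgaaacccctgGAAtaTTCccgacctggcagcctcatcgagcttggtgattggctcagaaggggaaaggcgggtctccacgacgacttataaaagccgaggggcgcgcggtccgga
HSPD1 and HSPE1, which encode the mitochondrial chaperonin and its lid, are transcribed away from each other from starts separated by the 104 bases shown here. No element searched for lies wholly within them.
HSPD1-HSPE1 (chr2:197500275-197500378, plus strand): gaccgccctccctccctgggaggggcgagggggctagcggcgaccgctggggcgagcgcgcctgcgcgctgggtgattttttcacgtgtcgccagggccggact

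The miR-148a-3p libraries held 630142 to 1564125 counts and the control libraries 876131 to 1069154, over 12448 to 13849 gene symbols each. Control replicate 1 and miR-148a-3p replicate 3 lay at opposite ends of the first principal component (−31.4 and 34.2, with 29.8% of the variance), and the other libraries lay between −8.29 and 13.1. Of 9 colon epithelium markers, 8 were counted, with summed reads of 1022 to 2740 in miR-148a-3p libraries and 1473 to 2069 in control libraries, most of them from KRT18. Of 9 blood markers, 8 were at 0 in all 6 libraries, among them PTPRC, and the list summed to 0 in each miR-148a-3p library and to at most 2 reads in control libraries. Fibroblast and endothelial markers, with COL1A2, DCN, LUM and CDH5 at 0, summed to 28 to 83 reads in miR-148a-3p libraries and 34 to 85 in control libraries. DROSHA was counted at 20, 15 and 13 reads with miR-148a-3p, against 31, 16 and 16 with the control; the labels do not say which part was deleted, so reads near its 3' end check nothing.

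Expression is given as counts per 1000000 reads (CPM), with library sizes scaled by TMM factors. In bulk samples, fewer cells that express a gene and less RNA per cell cannot be told apart. The libraries count transcript 3' ends, so a longer transcript does not give more reads, and CPM levels are set side by side between genes. Reads that match several copies of a gene could still be lost or listed under another copy. This bears on HSPA8, HSPA1A, HSPA1B, HSPD1 and HSPE1 below, among others, and was not tested. Fold changes are on the log2 scale, with miR-148a-3p over the control miRNA, from edgeR's quasi-likelihood fit over all 8921 genes tested, with the standard error (SE) and an unadjusted 95% interval. The threshold was a Benjamini-Hochberg adjusted p of 0.05 over all of these genes.

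Cytosolic HSP90 transcripts stood far above the other members, and the levels of the 39 counted members spanned 850-fold in control cells. HSP90AA1 was the second and HSP90AB1 the sixth most abundant of all gene symbols there. Together they held 47.8% of the summed control level of all members. Means above 1000 CPM were found for 7 members: HSP90AA1, HSP90AB1, HSP90B1, HSPA5, HSPB1, HSPD1 and CANX. Another 24 members lay between 100 and 1000 CPM and 8 below, down to DNAJB9, an ER J protein that targets misfolded proteins for degradation. The median gene tested had a control level of 44.8 CPM. The order of the levels was clear at the top and blurred further down. Of 38 pairs of neighbours in it, 8 had control ranges that did not overlap: HSP90AA1 over HSP90AB1, HSP90AB1 over HSP90B1, HSP90B1 over HSPA5, HSPA5 over HSPB1, CANX over CALR, CALR over CCT6A, PDIA6 over CCT3, and HSPA14 over DNAJB9. All other neighbours overlapped. The spread between control libraries, as SD over mean, had a median of 16.6% over the 38 tested members and ran from 4.01% for CANX to 44.3% for HSPA14. Over the 2168 tested genes at 100 CPM or more it had a median of 15.1%.

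**Figure D1:**
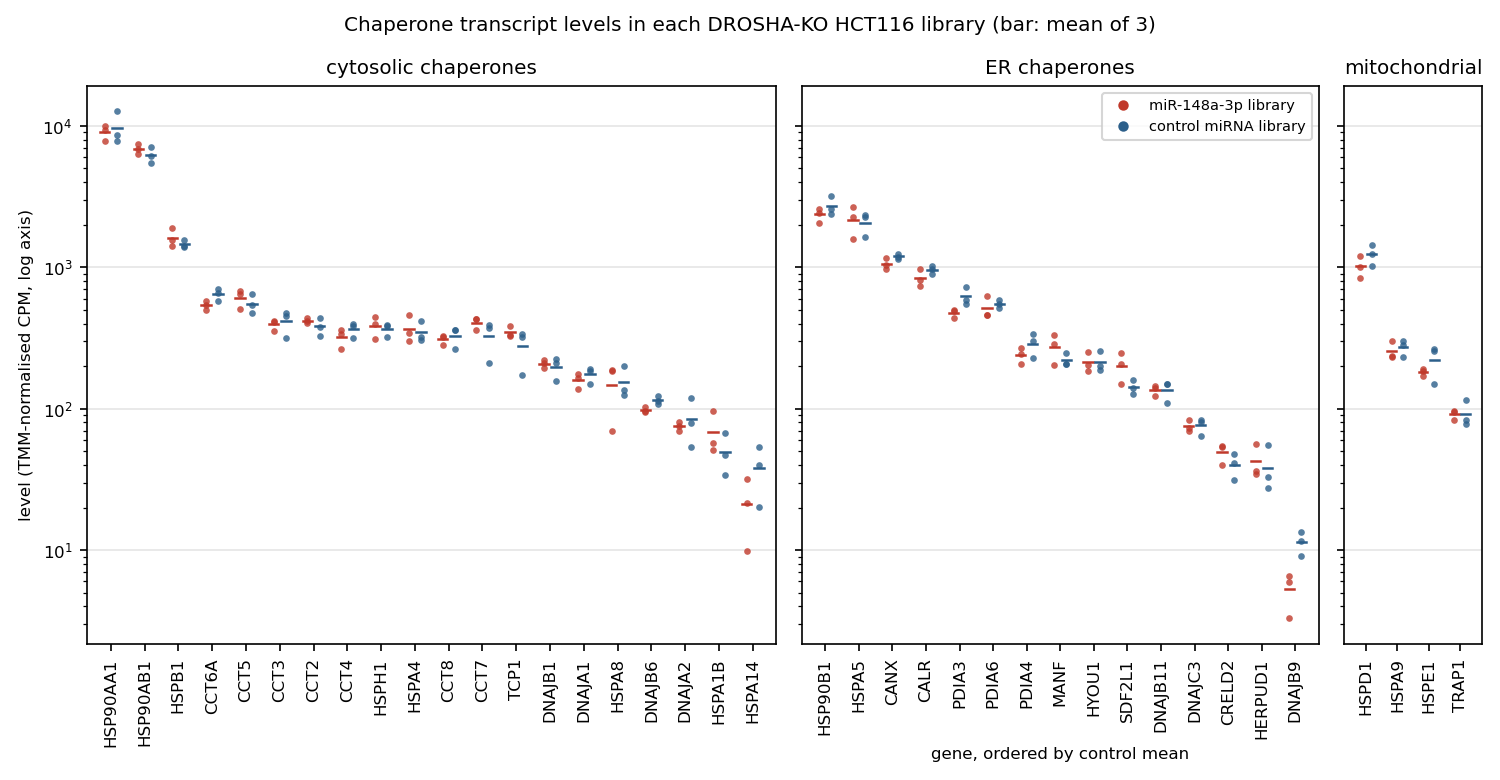
Levels of the 39 counted chaperone genes in each library, in TMM-normalised CPM on a log axis, by compartment and ordered by control mean; points are libraries and bars the means of 3. HSP90AA1 and HSP90AB1 lie at 5467 CPM or above in all 6 libraries, and the points of both groups overlap for most genes.

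With miR-148a-3p, 0 of the 38 tested members passed the threshold with edgeR, where 0.0112% of all genes tested passed. DESeq2 and limma-voom also called 0 members. At an unadjusted p below 0.05, edgeR gave 3 members, where 6.79% of all genes were: HSPA14 and PDIA3 on the lower side (3.4% of all genes) and SDF2L1 on the higher side (3.4%). DESeq2 gave 2 such members and limma-voom 3. The groups did not overlap for 3 members, DNAJB6, CCT6A and PDIA3, which were lower in all 3 miR-148a-3p libraries than in any control library, where 6.59% of all genes were. They did so for 0 members in the higher direction, where 6.22% of all genes were. Fitted values were below 0 for 23 of the 38 (50.5% of all genes), and the median log2 fold change was −0.048, against −0.0039 over all genes. The 95% interval lay within 1 log2 unit of 0 for 36 members, the exceptions being HSPA14 and HSPA1B. A p that misses the threshold does not show that a gene did not change; the intervals give the sizes these libraries leave possible.

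**Figure D2:**
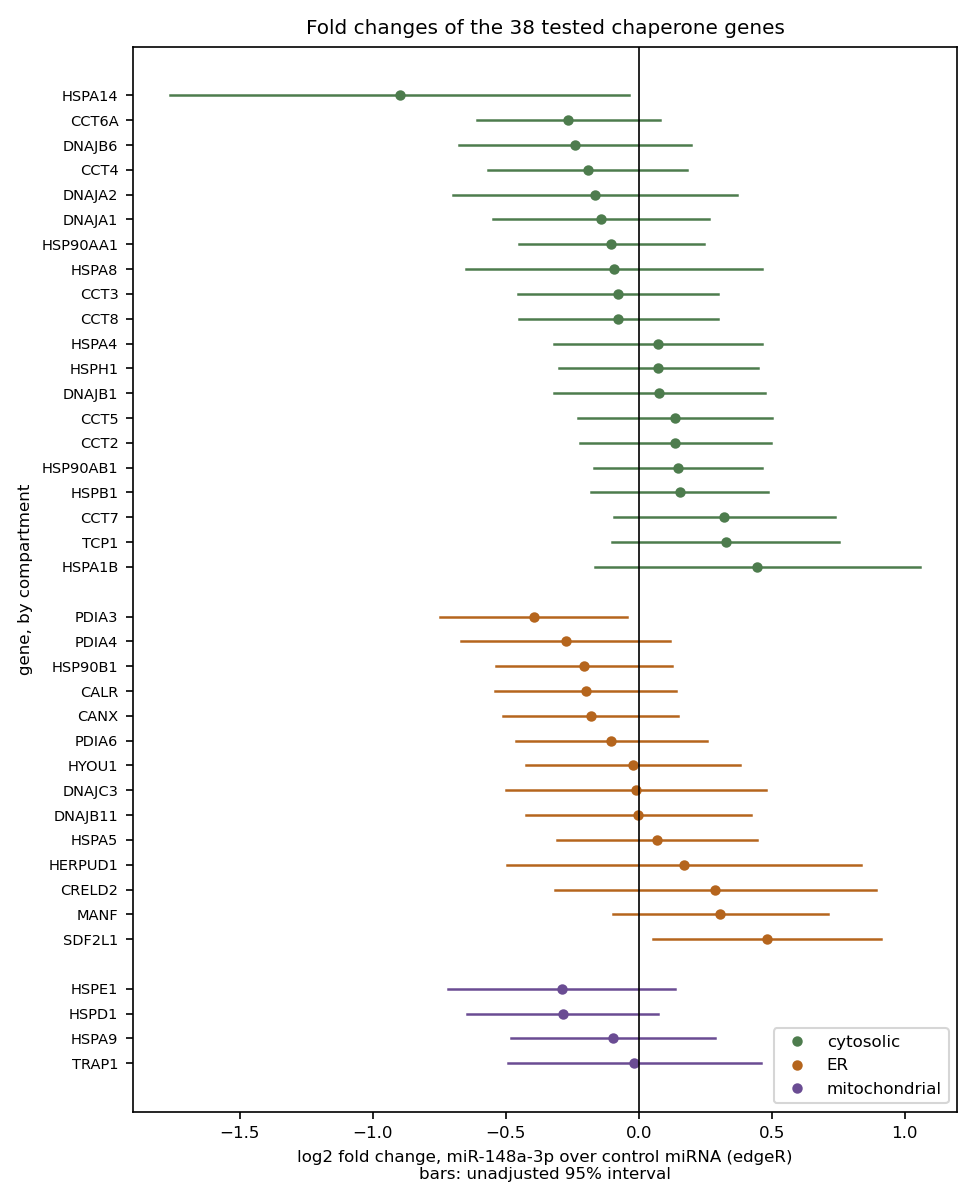
Log2 fold changes, miR-148a-3p over control miRNA, of the 38 tested chaperone genes with unadjusted 95% intervals, grouped by compartment and sorted within it. Intervals of 35 genes cross 0; those of HSPA14 and PDIA3 lie below it and that of SDF2L1 above it, and 0 genes passed after adjustment.

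HSP90 of the cytosol holds kinases, steroid receptors and other clients in a state ready for activation; HSP90AA1 is the more inducible and HSP90AB1 the more constitutive form. HSP90AA1 (chromosome 14, 102080742 to 102139749) was measured at 9959, 7859 and 9294 CPM with miR-148a-3p, against 12663, 8582 and 7859 CPM with the control. The groups overlapped, and control replicate 1 held the highest value of all. Its log2 fold change was −0.10 (SE 0.17, interval −0.45 to 0.25, edgeR adjusted p = 0.937), and without control replicate 1 the fitted value was on the other side of 0, at 0.13. HSP90AB1 (chromosome 6, 44246194 to 44253883) was measured at 6848, 6338 and 7459.5 CPM with miR-148a-3p, against 7067, 6109 and 5467 CPM with the control, a log2 fold change of 0.15 (SE 0.15, interval −0.17 to 0.46, edgeR adjusted p = 0.893). HSP90AA1 exceeded HSP90AB1 in every library, by 1.45, 1.24 and 1.25 times with miR-148a-3p and by 1.79, 1.40 and 1.44 times with the control.

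As counted, the cytosolic HSP70 genes were low by comparison. HSPA8, which encodes the constitutive HSP70 (HSC70), was measured at 69.9, 187 and 186 CPM with miR-148a-3p, against 124, 202 and 135 CPM with the control, and ranked 1329 among all symbols in control cells. The groups overlapped, and the lowest value was that of miR-148a-3p replicate 1, from 106 reads in the deepest library. Its log2 fold change was −0.093 (SE 0.27, interval −0.65 to 0.46, edgeR adjusted p = 0.958) and turned to 0.28 without that library and to 0.15 without control replicate 2. RefSeq names 20 pseudogenes after HSPA8, of which 4 were counted with 14 reads in all, 1.75% of the 798 reads of HSPA8. How the authors counted reads that match several copies is not given in the sources used here, and its part in the level of HSPA8 was not tested.

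HSPA1A and HSPA1B are neighbouring, nearly identical genes on chromosome 6 for the stress-inducible HSP70. HSPA1A was listed in none of the 6 libraries, and a count of 0 allows up to 1.92 to 4.76 CPM with miR-148a-3p and 2.81 to 3.42 CPM with the control, for counting error only. HSPA1B was measured at 50.8, 95.8 and 57.6 CPM with miR-148a-3p, against 47.2, 67.7 and 34.1 CPM with the control, from 77, 81 and 35 reads with miR-148a-3p and 49, 58 and 30 reads with the control. These ranges overlapped, and the log2 fold change was 0.45 (SE 0.30, interval −0.16 to 1.06, edgeR adjusted p = 0.796). Leaving out 1 library moved it to as little as 0.12 (miR-148a-3p replicate 2 out) and as much as 0.72 (control replicate 2 out). The 3' ends of HSPA1A and HSPA1B, where the reads lie, were not compared. Whether the reads listed under HSPA1B include some of HSPA1A was not tested. HSPA14, a ribosome-associated HSP70 relative, was measured at 9.89, 31.9 and 21.4 CPM with miR-148a-3p, against 20.2, 53.7 and 39.8 CPM with the control. Its fitted value was the lowest of the members, −0.90 (SE 0.42, interval −1.76 to −0.037, edgeR adjusted p = 0.725), on 15, 27 and 13 reads with miR-148a-3p and 21, 46 and 35 reads with the control, and the groups overlapped. With 1 library left out it ran from −1.38 to −0.47, the smallest size being that without miR-148a-3p replicate 1 and the largest that without miR-148a-3p replicate 2.

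The HSP110 members, exchange factors of HSP70, are HSPH1 and HSPA4. HSPH1 (HSP105) was measured at 312, 448 and 395 CPM with miR-148a-3p, against 388, 386 and 319.6 CPM with the control, a log2 fold change of 0.073 (SE 0.18, interval −0.30 to 0.45, edgeR adjusted p = 0.955). HSPA4, of the same HSP110 family, averaged 368 ± 83.7 CPM with miR-148a-3p and 348 ± 58.3 CPM with the control (SD, n = 3 each), a log2 fold change of 0.073 (SE 0.19). HSPB1 (HSP27), the small heat shock protein that holds unfolded chains without ATP, was measured at 1556, 1880.0 and 1419 CPM with miR-148a-3p, against 1569, 1402 and 1393 CPM with the control. It ranked 67 among all symbols in control cells, and its log2 fold change was 0.15 (SE 0.16, interval −0.18 to 0.49, edgeR adjusted p = 0.893). The groups overlapped for these 3 genes.

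J proteins deliver substrates to HSP70 and start its ATP cycle. The 4 of the cytosol had control means from 83.9 to 198 CPM, and 3 of 4 had fitted values below 0 (median −0.15). DNAJB1 (HSP40), an HSF1 target that works with HSPA8 in disaggregation, was measured at 194, 220.1 and 211 CPM with miR-148a-3p, against 157, 224 and 212 CPM with the control. DNAJB6, a suppressor of polyglutamine aggregation, was at 94.9, 95.8 and 102 CPM with miR-148a-3p, against 123, 107 and 114 CPM with the control. Each miR-148a-3p value of DNAJB6 lay below each control value, but its log2 fold change was −0.24 and did not pass (SE 0.21, interval −0.68 to 0.20, edgeR adjusted p = 0.881). DNAJA1 and DNAJA2, general partners of HSC70, had −0.14 (SE 0.20) and −0.16 (SE 0.26). Of these, DNAJA2 varied most between control libraries, at 118, 53.7 and 79.6 CPM.

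The chaperonin CCT (TRiC) is a double ring in which 8 different subunits take part in equal number, and it folds actin and tubulin among others. Its 8 transcripts lay close together, with control means from 277 CPM for TCP1 to 647 CPM for CCT6A, 2.34-fold apart. The highest subunit exceeded the lowest by 1.90 to 2.41 times in the miR-148a-3p libraries and by 1.84 to 3.77 times in the control libraries, the 3.77 being that of control replicate 1. CCT6A was the highest subunit in all 3 control libraries and CCT5 in all 3 miR-148a-3p libraries, though in miR-148a-3p replicate 1 they were nearly tied, at 505 CPM for CCT5 and 501 CPM for CCT6A. Lower in the order, the control ranges of CCT3, CCT2, CCT4, CCT8, CCT7 and TCP1 overlapped from each to the next.

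With miR-148a-3p, fitted values were below 0 for 4 CCT subunits and above 0 for 4 (median 0.030), and 0 passed. CCT6A (chromosome 7, 56051765 to 56063989) was measured at 501, 544 and 573 CPM with miR-148a-3p, against 653, 706 and 581 CPM with the control, without overlap. Its log2 fold change was −0.26 (SE 0.17, interval −0.61 to 0.079, edgeR adjusted p = 0.784). CCT7 was measured at 359, 429 and 428 CPM with miR-148a-3p, against 209, 391 and 373 CPM with the control, a log2 fold change of 0.32 (SE 0.20, interval −0.093 to 0.74, edgeR adjusted p = 0.781). TCP1, the founding subunit of the ring, was at 334, 324 and 382 CPM with miR-148a-3p, against 173, 335 and 322 CPM with the control, and had 0.33 (SE 0.21, interval −0.10 to 0.75, edgeR adjusted p = 0.784). In both genes control replicate 1 stood below the other 5 libraries. Without control replicate 1, the log2 fold changes were 0.080 for CCT7 and 0.072 for TCP1. The other subunits had fitted values between −0.19 for CCT4 and 0.14 for CCT2. Summed over the 8 subunits, the level was 3053, 3436 and 3556 CPM with miR-148a-3p, against 2888, 3718 and 3271 CPM with the control.

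In the ER, BiP (HSPA5) is the HSP70, which also holds the sensors of the unfolded protein response inactive, and GRP94 (HSP90B1) is the HSP90. HSP90B1 (chromosome 12, 103930410 to 103947926) was measured at 2422, 2061 and 2601 CPM with miR-148a-3p, against 3166, 2602 and 2396 CPM with the control. The log2 fold change was −0.21 (SE 0.16, interval −0.54 to 0.13, edgeR adjusted p = 0.85) and the groups overlapped. HSPA5 (chromosome 9, 125234853 to 125241343) was measured at 2256, 1577 and 2680.2 CPM with miR-148a-3p, against 1634, 2252 and 2326 CPM with the control. Its lowest value was in miR-148a-3p replicate 2 and its highest in miR-148a-3p replicate 3, so that the group given miR-148a-3p spanned the whole control range. The log2 fold change of HSPA5 was 0.068 (SE 0.18, interval −0.31 to 0.44, edgeR adjusted p = 0.955), and it turned to −0.11 when miR-148a-3p replicate 3 was left out and to −0.081 when control replicate 1 was. Both promoters shown above hold an ER stress element, and the ratio of HSP90B1 to HSPA5 varied between libraries, at 1.07, 1.31 and 0.971 with miR-148a-3p and 1.94, 1.16 and 1.03 with the control. HYOU1 (GRP170), the exchange factor of BiP, averaged 213 ± 34.7 CPM with miR-148a-3p and 214 ± 37.6 CPM with the control (SD, n = 3 each), a log2 fold change of −0.021 (SE 0.20).

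Among the J proteins and partners of BiP, SDF2L1 had the largest positive fitted change of all members. SDF2L1, which forms a complex with the J protein DNAJB11 (ERdj3), was measured at 150.3, 206 and 249 CPM with miR-148a-3p, against 141, 159.8 and 127 CPM with the control. Replicates 2 and 3 of miR-148a-3p lay above every control library and replicate 1 within the control range. Its log2 fold change was 0.48 (SE 0.21, interval 0.052 to 0.91, edgeR adjusted p = 0.692, unadjusted p = 0.0294), from 0.31 to 0.67 with 1 library left out. DNAJB11 and DNAJC3, a J protein that also restrains the kinase PERK in the cytosol, had fitted values of −0.0010 (SE 0.21) and −0.011 (SE 0.24). DNAJB9 (ERdj4) was too low to be tested, with 10, 5 and 2 reads with miR-148a-3p, against 14, 10 and 8 reads with the control, which is 6.59, 5.92 and 3.29 CPM with miR-148a-3p, against 13.5, 11.7 and 9.10 CPM with the control. Each miR-148a-3p value lay below each control value. Counting error is wide at this depth: exact Poisson 95% intervals were 4.80 to 18.4, 1.62 to 11.7 and 0.242 to 7.22 reads with miR-148a-3p, against 7.65 to 23.5, 4.80 to 18.4 and 3.45 to 15.8 reads with the control, in libraries of unequal depth. Without the filter on low counts the log2 fold change of DNAJB9 was −1.04 (SE 0.69, edgeR adjusted p = 0.855).

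The lectins calreticulin and calnexin retain glycoproteins in the ER until they are folded, and both had lower fitted values with miR-148a-3p. CANX was measured at 1161, 965 and 1031 CPM with miR-148a-3p, against 1152, 1246 and 1184 CPM with the control, a log2 fold change of −0.18 (SE 0.16, interval −0.51 to 0.15, edgeR adjusted p = 0.878). Only replicate 1 of miR-148a-3p reached into the control range. CALR averaged 838 ± 122 CPM with miR-148a-3p and 964 ± 66.8 CPM with the control (SD, n = 3 each), a log2 fold change of −0.20 (SE 0.17, interval −0.54 to 0.14, edgeR adjusted p = 0.861). The groups overlapped for each lectin alone. The summed level of both lectins was 2132, 1697 and 1844 CPM with miR-148a-3p, against 2177, 2139 and 2159 CPM with the control, without overlap. The sums of all other roles of members overlapped between groups. Of all single genes tested, 6.59% were lower without overlap, a share that was not computed for sums of genes.

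Disulfide isomerases form and rearrange the disulfide bonds of secreted proteins, and the 3 among the members had lower fitted values with miR-148a-3p (median −0.27). Other genes of this family did not all lie on that side: P4HB had 0.23 (SE 0.18), TXNDC5 −0.45 (SE 0.26) and PDIA5 −0.10 (SE 0.26), named after their values were seen. PDIA3 (ERp57; chromosome 15, 43746438 to 43773278), the isomerase that works with the 2 lectins, was measured at 496, 438 and 489 CPM with miR-148a-3p, against 727, 592 and 552 CPM with the control. The highest miR-148a-3p value lay below the lowest control value. Its log2 fold change was −0.39 (SE 0.17, interval −0.75 to −0.042, edgeR adjusted p = 0.692, unadjusted p = 0.0294), from −0.47 to −0.27 with 1 library left out, and it did not pass in any of these fits. RefSeq names 2 pseudogenes after PDIA3, and 1 of them was counted with 65 reads, 2.05% of the 3167 reads of PDIA3. PDIA4 had −0.27 (SE 0.19) and PDIA6 −0.10 (SE 0.18), with overlapping groups.

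MANF, CRELD2 and HERPUD1 are small targets of the unfolded protein response: a secreted factor that also binds BiP, a secreted factor with an isomerase-like motif, and a membrane protein of ER-associated degradation. All 3 had higher fitted values with miR-148a-3p (median 0.29), and 0 passed. MANF was measured at 287, 202 and 331 CPM with miR-148a-3p, against 248, 205 and 208 CPM with the control, a log2 fold change of 0.31 (SE 0.20, interval −0.10 to 0.71, edgeR adjusted p = 0.786). Replicate 2 of miR-148a-3p gave the lowest of the 6 values and replicates 1 and 3 the highest. CRELD2 and HERPUD1, with 113 and 109 control reads in all, had 0.29 (SE 0.29) and 0.17 (SE 0.32). HERPUD1 was highest in replicate 1 of both groups, at 56.7 CPM with miR-148a-3p and 54.9 CPM with the control.

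The 4 mitochondrial members had lower fitted values with miR-148a-3p, with a median of −0.19, and 0 passed. HSPD1 (HSP60; chromosome 2, 197486584 to 197500274), the chaperonin of the matrix, was measured at 839.7, 996 and 1203 CPM with miR-148a-3p, against 1015, 1439 and 1243 CPM with the control, a log2 fold change of −0.29 (SE 0.18, interval −0.64 to 0.074, edgeR adjusted p = 0.776). HSPE1 (HSP10; chromosome 2, 197500379 to 197503449), its lid, was measured at 171, 189 and 186 CPM with miR-148a-3p, against 150.3, 264 and 254 CPM with the control, a log2 fold change of −0.29 (SE 0.21, interval −0.72 to 0.14, edgeR adjusted p = 0.813). Both were lowest in replicate 1 within each group, and the groups overlapped. Transcribed from either side of the short stretch shown above, HSPD1 exceeded HSPE1 by 4.92, 5.26 and 6.47 times with miR-148a-3p and by 6.76, 5.46 and 4.90 times with the control. RefSeq names 22 pseudogenes after HSPD1 and 28 after HSPE1, which drew 59 and 5 reads where they were counted. Reads lost because they match several copies would not show in these counts. Their part in the levels and the ratio of HSPD1 and HSPE1 was not tested. HSPA9 (mortalin), the HSP70 that pulls imported chains into the matrix, was measured at 237, 232 and 303 CPM with miR-148a-3p, against 284, 303 and 233 CPM with the control, a log2 fold change of −0.10 (SE 0.19, interval −0.48 to 0.29, edgeR adjusted p = 0.942). TRAP1, the mitochondrial HSP90, averaged 91.7 ± 6.90 CPM with miR-148a-3p and 92.3 ± 19.8 CPM with the control (SD, n = 3 each). Its log2 fold change was −0.016 (SE 0.23).

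Set side by side, the compartments had median log2 fold changes of −0.0016 over 20 cytosolic, −0.016 over 14 ER and −0.19 over 4 mitochondrial members, against −0.0039 over all genes tested. Lower fitted values were found for 10 of 20, 9 of 14 and 4 of 4 members. The summed cytosolic level was 22661, 21181 and 23406 CPM with miR-148a-3p, against 25636, 21511 and 19416 CPM with the control. The ER sum was 8934, 7365 and 9651 CPM with miR-148a-3p, against 9552, 9291 and 9038 CPM with the control. For the mitochondria it was 1331, 1513 and 1788 CPM with miR-148a-3p, against 1533, 2084 and 1845 CPM with the control. All 3 sums overlapped between groups. The mitochondrial means were furthest apart for their size, at 1544 ± 229.8 CPM with miR-148a-3p and 1821 ± 276 CPM with the control (SD, n = 3 each). The ratio of the ER sum to the cytosolic sum was 0.394, 0.348 and 0.412 with miR-148a-3p, against 0.373, 0.432 and 0.465 with the control. Without HSP90AA1 and HSP90AB1 in the cytosolic sum it was 1.53, 1.05 and 1.45 with miR-148a-3p, against 1.62, 1.36 and 1.48 with the control. As counted, the ER members then outweighed the cytosolic ones in every library. How reads shared by copies of HSPA8, HSPA1A, HSPA1B, HSPD1 and HSPE1 were counted is not known. The part of such reads in these sums and ratios was not tested.

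**Figure D3:**
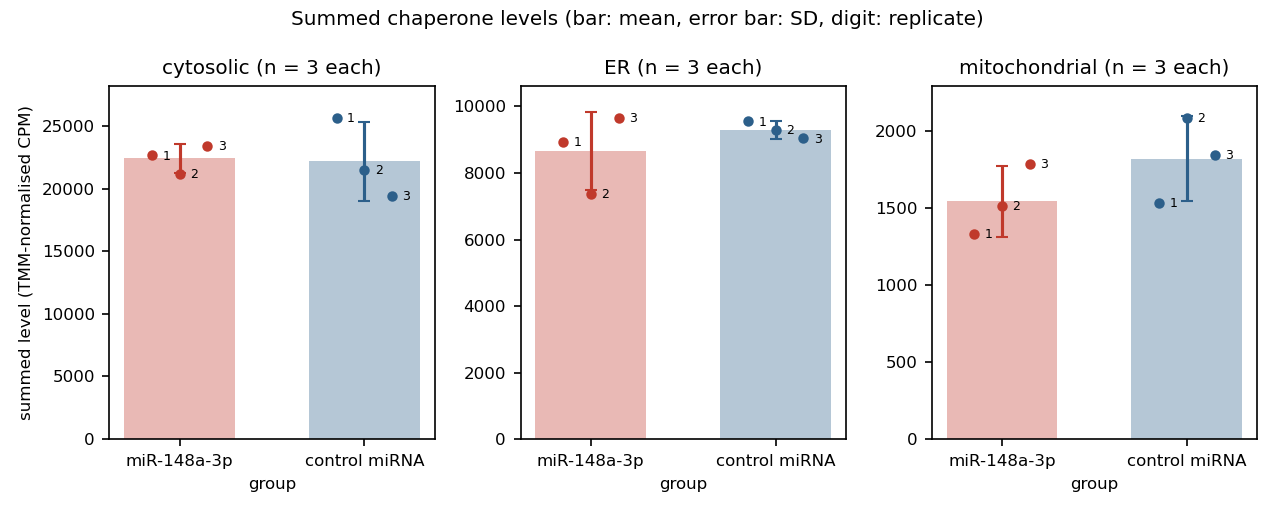
Summed level of the members of each compartment, in TMM-normalised CPM, by group; bars are means, error bars SD over 3 libraries, and points single libraries with their replicate number. The groups overlap in all 3 panels, and the widest control spread is that of the cytosolic sum, which control replicate 1 tops at 25636 CPM.

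Within each group, single libraries stood high or low for many members of a compartment. Of 14 tested ER members, control replicate 1 held the highest of the 6 values for 6 and the lowest for 0. Over all genes tested it held the highest for 21.6% and the lowest for 21.6%. Close to it, miR-148a-3p replicate 3 held the highest ER value for 5 and the lowest for 0 (19.6% and 20.1% of all genes). For the ER members miR-148a-3p replicate 2 held the lowest value for 6 and the highest for 0 (16.5% and 16.5% of all genes). For the 20 cytosolic members miR-148a-3p replicate 1, the deepest library, held the lowest value for 8 and the highest for 0, against 10.8% and 10.9% of all genes. The shares over all genes are not matched for level. Median control levels were 44.8 CPM for all genes tested and 329 CPM for the listed cytosolic members. Control replicate 2 held the highest value for 3 of 4 mitochondrial members and the lowest for 1, TRAP1, against 15.7% and 15.2% of all genes. As medians over members of log2(CPM + 1), relative to the mean of the 6 libraries, the ER genes stood at 0.053, −0.19 and 0.074 with miR-148a-3p, against 0.14, 0.021 and −0.087 with the control. For the cytosolic genes these were −0.15, 0.065 and 0.069 with miR-148a-3p, against −0.14, 0.16 and −0.045 with the control. In both compartments the libraries of a group lay further apart than the groups' averages.

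**Figure D4:**
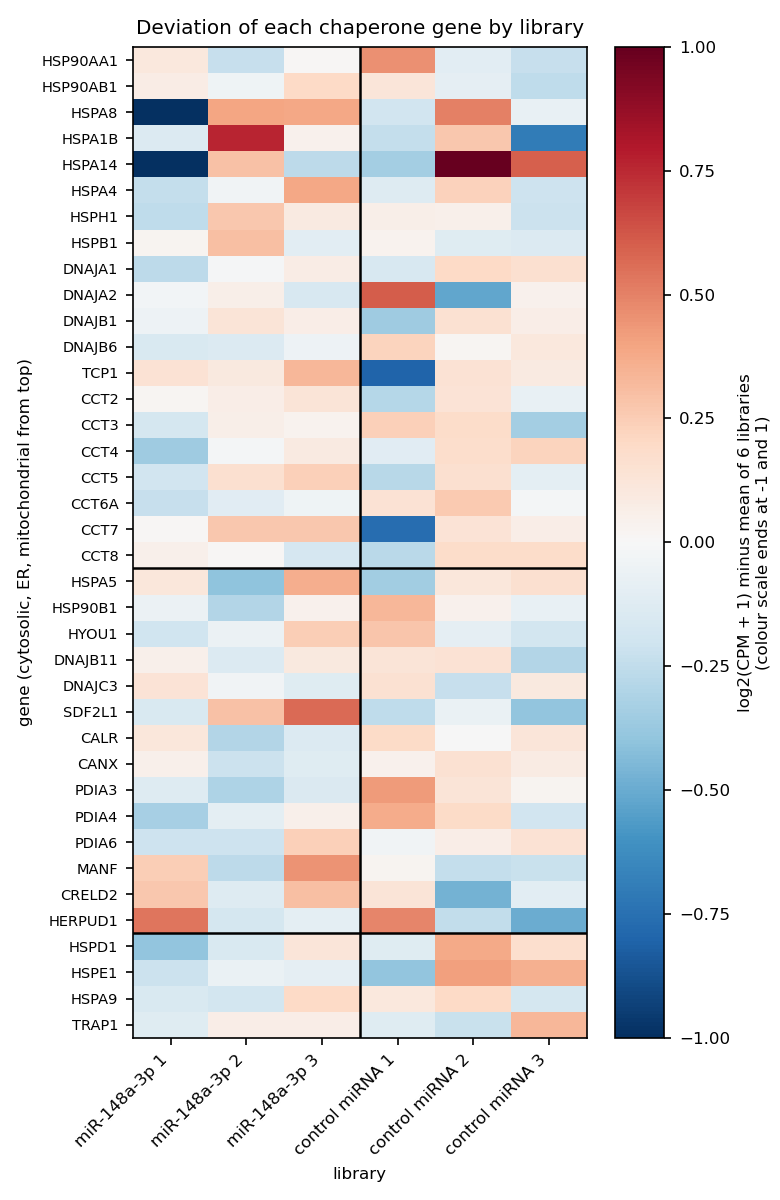
Deviation of each tested chaperone gene, as log2(CPM + 1) minus its mean over the 6 libraries, by library (columns, miR-148a-3p left of the control) and compartment (blocks from top: cytosolic, ER, mitochondrial); the colour scale ends at −1 and 1. TCP1 and CCT7 are low in control replicate 1, several ER genes are high there and low in miR-148a-3p replicate 2, and HSPA8 and HSPA14 are low in miR-148a-3p replicate 1.

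The regulators and partners of these chaperones, 65 further genes listed by role, were read from the same fit. Of 56 tested, 21 had fitted values below 0 and 35 above (median 0.069), and 0 passed with edgeR, DESeq2 or limma-voom. At an unadjusted p below 0.05, edgeR gave 7 of the 56 on the higher side and 1 on the lower, where 3.4% of all genes were on each side, and DESeq2 and limma-voom gave 7 in all each. The groups did not overlap for 8 in the higher direction, 14.3% of those tested, where 6.22% of all genes were, and for 0 in the lower direction, where 6.59% were. The 4 with the smallest p were all on the higher side. PFDN6, a subunit of the prefoldin complex that hands chains to CCT, averaged 50.1 ± 5.57 CPM with miR-148a-3p and 27.3 ± 4.50 CPM with the control (log2 fold change 0.88, SE 0.31, interval 0.25 to 1.51, edgeR adjusted p = 0.538). HSPBP1, an exchange factor of HSP70, averaged 51.3 ± 24.3 CPM with miR-148a-3p and 23.9 ± 11.6 CPM with the control (1.07, SE 0.38, edgeR adjusted p = 0.563). TIMM44, which anchors HSPA9 at the import channel, averaged 56.4 ± 11.1 CPM with miR-148a-3p and 31.3 ± 9.62 CPM with the control (0.83, SE 0.32, edgeR adjusted p = 0.598). CLPP, a protease of the mitochondrial matrix, averaged 121 ± 6.89 CPM with miR-148a-3p and 81.6 ± 9.40 CPM with the control (0.56, SE 0.22, edgeR adjusted p = 0.626). The 8 tested mitochondrial partners had a median of 0.41, with 6 higher, while the 4 mitochondrial chaperones among the members had −0.19. The partners were counted less: the 10 listed had a median control level of 32.0 CPM, against 248 CPM for the 4 members. Intervals lay within 1 log2 unit of 0 for 3 of the 8 partners and for 4 of 4 members. The difference between the lists was not tested. The regulators had a median of 0.30 over 9 genes, the cytosolic co-chaperones 0.044 over 25 and the ER partners 0.027 over 14. Of the 9 regulators, 6 had higher and 3 lower fitted values, and 0 passed. HSF1 had 0.60 (SE 0.24, edgeR adjusted p = 0.659). ATF4 had 0.32 (SE 0.19), XBP1 0.16 (SE 0.28) and ATF6 −0.088 (SE 0.28).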

How the data were processed

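For each of 6 mRNA libraries the authors deposited whole-number counts of reads by gene symbol, without normalization. Libraries were made from 500 ng of RNA with an oligo-dT kit for 3' ends, per the labels' protocols. The submitters' processing notes name the tools cutadapt, STAR and Bowtie2 and the build GRCh38. Their roles and versions, the counting tool, its annotation and whether it used strand were not given in the sources used here. A symbol missing from a library was read as 0. A small RNA library from wild-type HCT116 cells was not used.

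The test was that of edgeR 4.0.16 (R 4.3.3, TMM, filterByExpr, quasi-likelihood F test, group as the only term), with Benjamini-Hochberg adjustment over all 8921 genes tested. The SE is the size of the log2 fold change over the square root of F, and the interval uses the fit's t quantile. The scripts were tested on simulated counts. Nothing in the labels ties the replicates to separate cultures; the p-values then measure only spread among libraries, possibly technical. Chi-square per degree of freedom between libraries of a group was 2.52 to 5.30, above counting noise. An exact permutation test of 3 libraries against 3 has 0.1 as its smallest two-sided p and was not run. The members, lists and roles were chosen with earlier results of these data known. Values in every library are given for the most abundant member of each role, members with an unadjusted p below 0.05, the 3 smallest p of each compartment and the paired genes; others are shown to complete a family. All 40 symbols matched RefSeq. The promoter motifs were picked with the counts already known.

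The alternatives were DESeq2's and upper-quartile size factors, DESeq2 1.42.0 and limma-voom (limma 3.58.1), no filter or a mean of at least 10 CPM, the replicate number as a block, leaving out each library, and adding the reads of pseudogenes to their parent gene.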

Additional observations from a re-analysis of the deposited data

How the results depend on the processing

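Under 14 alternatives, 0 members passed, and their smallest adjusted p lay between 0.219 and 0.998. The count of all genes called was 1 in the main analysis, 2 with DESeq2, 3 with limma-voom, 18 without the count filter, 3 with the replicate block, and 1 to 26 with 1 library left out (26 without control replicate 1, 2 without miR-148a-3p replicate 3). The labels do not say what the shared replicate numbers stand for. Deviations of same-numbered libraries from their group mean correlated at 0.13, 0.093 and −0.0018 for replicates 1, 2 and 3, and those of unlike numbers at −0.13 to 0.027. Deviations within a group sum to 0 for each gene, so positive values for some pairs force negative ones for others. The contrast between like and unlike numbers is then partly built in. In both groups replicates 1 and 2 correlated best with their own number, and replicate 3 did not. Whether same-numbered libraries share a batch was not tested. With the block, 5 members had an unadjusted p below 0.05, against 3 without it. The compartment medians moved by less than the spread between replicates under every alternative. Leaving out 1 of 3 libraries could hardly break that criterion. For mitochondrial members the spread was 0.18, about the size of their median of −0.19. With 1 library left out the medians ran from −0.061 to 0.14 for cytosolic, −0.15 to 0.0097 for ER and −0.26 to −0.10 for mitochondrial members. Of 532 refitted member fold changes, 32 changed sign, over 14 members, and 500 did not. Outside the fits with 1 library left out, DNAJB11 changed sign with limma-voom (0.0075), the 10 CPM filter (0.0012) and the block (0.00042), DNAJC3 with limma-voom (0.0055) and TRAP1 with the block (0.0079). With 1 library left out, the fold changes that changed sign ran from −0.23 to 0.13 for HSP90AA1, from −0.33 to 0.28 for HSPA8, from −0.11 to 0.21 for HSPA4, from −0.052 to 0.21 for HSPH1, from −0.40 to 0.18 for DNAJA2, from −0.069 to 0.18 for DNAJB1, from −0.24 to 0.025 for CCT3, from −0.22 to 0.0017 for CCT8, from −0.11 to 0.25 for HSPA5, from −0.15 to 0.13 for HYOU1, from −0.13 to 0.067 for DNAJB11, from −0.12 to 0.064 for DNAJC3, from −0.13 to 0.54 for HERPUD1 and from −0.12 to 0.17 for TRAP1. None of the signs that changed belonged to a called value. Baseline levels moved by less than their SD in all 351 refits. Apart from rescaling, leaving out 1 of 3 libraries cannot move a mean by their SD. This criterion could therefore hardly fail and shows little about stability. Depth limits DNAJB9, with 2 to 14 reads a library, and HSPA14, with 13 to 46.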

Other observations

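The ER members with an ER stress element in their promoter window and those without one can be set side by side. The 9 with an element had log2 fold changes from −0.21 to 0.48, with a median of −0.021 and 5 lower, and control means from 38.3 to 2721 CPM. The 4 tested members without one had −0.27 to 0.31, with a median of −0.0062 and 3 lower. For the cytosolic members, the 5 with an exact match to the heat shock element of 3 units had a median of −0.10, with 4 lower. The 13 tested members without an exact match had 0.077, with 4 lower. Among the latter, HSPA1B, HSPB1, DNAJB1, TCP1 and CCT2 held the shorter part GAANNTTC, so that group is not one of genes lacking heat shock elements. These splits were made after the counts were seen and were not tested.

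Pseudogenes were searched for by symbol alone, as names that start with that of a member, so copies under other names and the pair HSPA1A and HSPA1B are outside these counts. Of the 40 genes, 16 have at least 1 pseudogene named after them in RefSeq, and 14 such pseudogene symbols were counted, with 160 reads in all against 189474 reads of the members. No readthrough symbol that starts with a member's name was counted.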
